A study of Homo sapiens with 4 samples.

Results

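The genes described here make up the oxygen-sensing switch of the cell: the 3 HIF alpha subunits HIF1A, EPAS1 and HIF3A, their beta partners ARNT and ARNT2, the prolyl hydroxylases EGLN1, EGLN2 and EGLN3, the asparaginyl hydroxylase HIF1AN, and VHL. Their members on the array were all probe sets annotated to exactly 1 of these 10 genes. That gave 31 probe sets of the 54613 in the table, for 10 of the 19775 genes that had a probe set to themselves, from 1 each for HIF1A, ARNT2 and EGLN2 to 7 each for HIF3A and ARNT. A further 2 probe sets that carry EGLN2 together with neighbouring loci in the annotation were left out by this rule.

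KYSE170, an established human line from a squamous cell carcinoma of the oesophagus, was grown in medium with fetal bovine serum and antibiotics. Total RNA from 2 untreated samples and from 2 samples exposed to ethyl-3,4-dihydroxybenzoate (EDHB) at 50 µg/ml for 12 h was read on Affymetrix arrays. The labels name no vehicle for the untreated cells. They leave unsaid if replicate arrays came from separate cultures, and the p-values measure a spread that may be technical. Each value is 1 linear intensity per probe set and array, and array medians lay between 23.3 and 23.5.

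In cells with enough oxygen, EGLN enzymes hydroxylate prolines of the alpha subunits, using oxygen, iron and 2-oxoglutarate. VHL, the recognition subunit of a ubiquitin ligase, binds the hydroxylated alpha subunit, which is then degraded. HIF1AN hydroxylates an asparagine and thereby blocks the coactivators EP300 and CREBBP. When these enzymes stop, the alpha subunit accumulates, pairs with a beta subunit and switches on its target genes, and EGLN1 and EGLN3 are themselves known targets, which forms a feedback loop. EDHB is known as an inhibitor of prolyl hydroxylases. This control acts on the protein, whereas the arrays read RNA only. They also read the RNA of whole samples, in which a change in the share of cells and a change per cell cannot be told apart.

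Rows of the table did not hold the same probe set in the columns of replicates 1 and 2. The rows of replicate 2 were first split by the ratio of EDHB to untreated into lists at least 2-fold higher, at least 2-fold lower, and the rest. Within that layout the order was restored from the levels of the untreated arrays. A value was used where the probability of its row reached 0.95. That was so for 54459 probe sets, 29 of the 31 members among them, each of those 29 with a probability that rounds to 1. Both probe sets of EGLN3 stayed below the limit and have firm values in replicate 1 only. Changes within replicate 1, EDHB 1 minus untreated 1, need no restoring. Of 7 measured squamous and epithelial markers, 6 lay above the median probe set (log2 intensity 4.54) in untreated cells. PERP stood at 12.44, SOX2 at 8.88, KRT5 at 6.43 and DSG3 at 5.89, with KRT14 below the median at 3.75. Of 13 markers of fibroblasts, leukocytes and endothelium, 4 lay above the median. These were COL1A1 at 6.44, PECAM1 at 5.02, PDGFRB at 4.78 and ITGAM at 4.68, and the lowest of the 13 was PTPRC at 1.79.

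**Figure D1:**
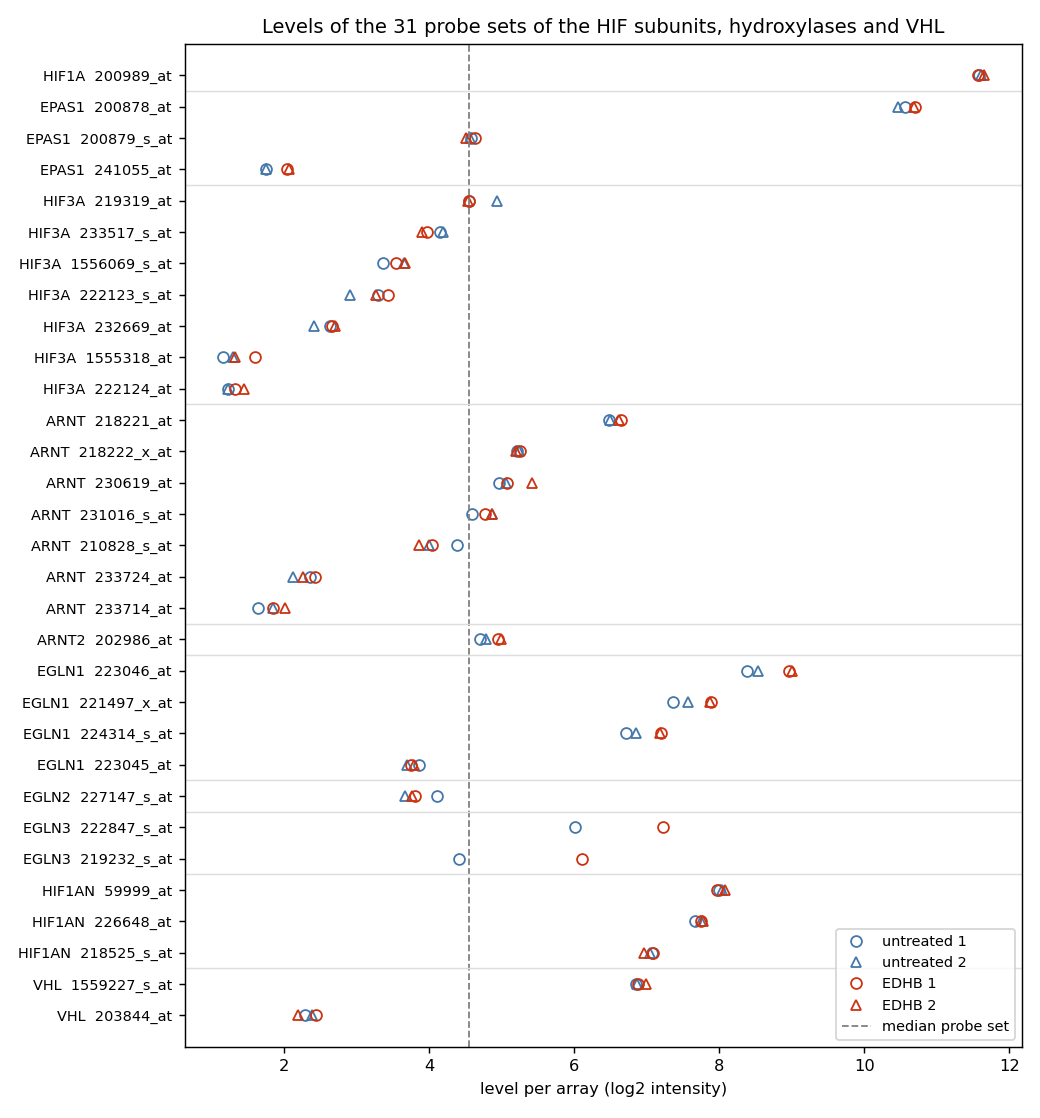
Log2 intensity (horizontal axis) of each of the 31 member probe sets on each array, with circles for replicate 1, triangles for replicate 2, blue for untreated cells and red for EDHB. The dashed line is the median probe set, and levels of different probe sets cannot be set against each other. In EGLN1 the red symbols of 3 probe sets lie to the right of the blue ones, and EGLN3 has circles only.

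EGLN1 had the largest fitted changes among the 16 restored members above the median probe set, and within replicate 1 both probe sets of EGLN3 had larger changes than any other member. HIF1A, HIF1AN and VHL had fitted changes between -0.03 and 0.07 log2 units. Over all 29 restored members, 0 passed the threshold in limma (Benjamini-Hochberg adjusted p under 0.05 over 54459 probe sets), where 0% of all restored probe sets passed. At an unadjusted p under 0.05 there were 6 members (20.7%), 5 higher and 1 lower. Of all probe sets 13.4% stood there, 6.45% higher and 6.98% lower. Without the probe sets of EGLN1, 3 of 25 members did. With an intensity trend in limma's prior variance, 0 members passed and 0.103% of all probe sets did. The statements below on single members therefore give sizes and whether the groups overlap, and they name no member as changed.

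Both EDHB arrays lay above both untreated arrays in 12 of the 29 members (41.4%), against 20.2% of all restored probe sets. They lay below in 2 members (6.9%), against 21.8%. In either direction the groups stood apart in 14 members (48.3%), against 42% of all restored probe sets. Above the median probe set, 8 of 16 members had the EDHB arrays higher, where 25.6% of all such probe sets did, and 1 had them lower, where 26.5% did. Probe sets of 1 gene read the same transcripts and are not independent. Without EGLN1, 9 of 25 members (36%) had the EDHB arrays higher, and 5 of 13 (38.5%) above the median. The median change of the 29 was 0.10 log2 units, beside -0.006 over all restored probe sets. It was positive within both replicates in 18 members, negative within both in 3 and of opposite sign in 8. Within replicate 1, 6 of the 31 were at least 0.4 log2 units higher with EDHB, against 3.92% of all probe sets, and these were 3 of EGLN1, both of EGLN3 and 1555318_at of HIF3A. The last had intensities of only 2.22 and 3.03 in replicate 1, its change was 0.03 within replicate 2, and with a pseudocount of 16 the change within replicate 1 was 0.06.

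EGLN1 encodes the main prolyl hydroxylase of HIF. On 223046_at, its brightest probe set, the intensities were 332 and 371 in untreated cells and 497 and 511 with EDHB. On 221497_x_at they were 164 and 189 without and 235 and 234 with the compound, and on 224314_s_at 105 and 115 without and 146 and 145 with it. In each of the 3 the groups stood apart, and the gap from the higher untreated array to the lower EDHB array was 0.42, 0.31 and 0.34 log2 units. The EDHB arrays lay within 0.04 log2 units of each other on all 3. It was the untreated arrays that differed, with replicate 2 above replicate 1 by 0.13 to 0.21, so the change was larger within replicate 1 than within replicate 2 on each probe set.

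The fitted change of EGLN1 on 223046_at was 0.52 ± 0.09 log2 units (SE, n = 2 and 2), a 1.44-fold higher level with a 95% interval of 1.21 to 1.70. Mean levels were 8.46 ± 0.11 without and 8.98 ± 0.03 with EDHB (SD, n = 2 each), and the limma adjusted p was 0.232. The other probe sets gave 0.42 ± 0.10 on 221497_x_at and 0.41 ± 0.09 on 224314_s_at (SE), with limma adjusted p-values of 0.259 and 0.252. Of the 27229 probe sets above the median, 1.76% had a higher change than 223046_at. The fourth probe set of EGLN1, 223045_at, differed from these. Its intensities of 14.5 and 12.9 without and 13.4 and 13.9 with EDHB lay below the median probe set, overlapped, and gave a change of -0.004.

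Whether EGLN1 passed hinged on the fit. With only the probe sets above the median, its lowest limma adjusted p was 0.0558, where 1.52% of the probe sets passed. When that filter was combined with an intensity trend, all 3 bright probe sets passed, at limma adjusted p-values of 0.0215, 0.0488 and 0.0434, where 5.92% of the probe sets passed, 3.13% with EDHB higher. With 1 probe set per gene and the trend it passed at 0.0398, where 1.9% of genes did, 1.07% with EDHB higher. Both combinations were chosen after the values had been seen.

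EGLN3 encodes the prolyl hydroxylase best known as a hypoxia-induced gene. Within replicate 1, 222847_s_at went from an intensity of 64.1 in untreated cells to 149 with EDHB, which is 2.32-fold or 1.21 log2 units. Within the same replicate, 219232_s_at went from 21.3, just below the median probe set, to 68.8, which is 3.23-fold or 1.69 log2 units. Both probe sets thus were more than 2-fold higher with EDHB, and 0.163% of all probe sets were at least 2-fold higher within replicate 1. Among probe sets above the median, 40 of 27342 had a higher change within replicate 1 than 222847_s_at. No such rank is given for 219232_s_at, whose untreated level lay below the median. There is no test, since each group has 1 array here.

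In replicate 2 each EGLN3 probe set had 2 candidate rows. For 222847_s_at, a row with intensities of 72.0 and 208 (2.89-fold) had a probability of 0.909. The other, with 56.0 and 53.7 (0.959-fold), had 0.0914. For 219232_s_at the rows were close, at 0.553 for intensities of 33.8 and 46.9 (1.39-fold) and 0.444 for 32.6 and 87.6 (2.69-fold). The rows with 2.89-fold and 2.69-fold lay in the list of probe sets at least 2-fold higher, so EDHB above untreated was fixed in advance for them. The other 2 candidates lay outside that list and went both ways, at 1.39-fold and 0.959-fold. With the more probable row taken as given, the mean change over both replicates was 1.37 log2 units for 222847_s_at and 1.08 for 219232_s_at. With the other candidate row it was 0.58 and 1.56. The means of 1.37 and 1.56 draw on rows listed for being at least 2-fold higher with EDHB. No SE or test is given, since either would leave out that selection and the doubt over the rows. Which of the candidate rows belong to EGLN3 is not known.

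**Figure D2:**
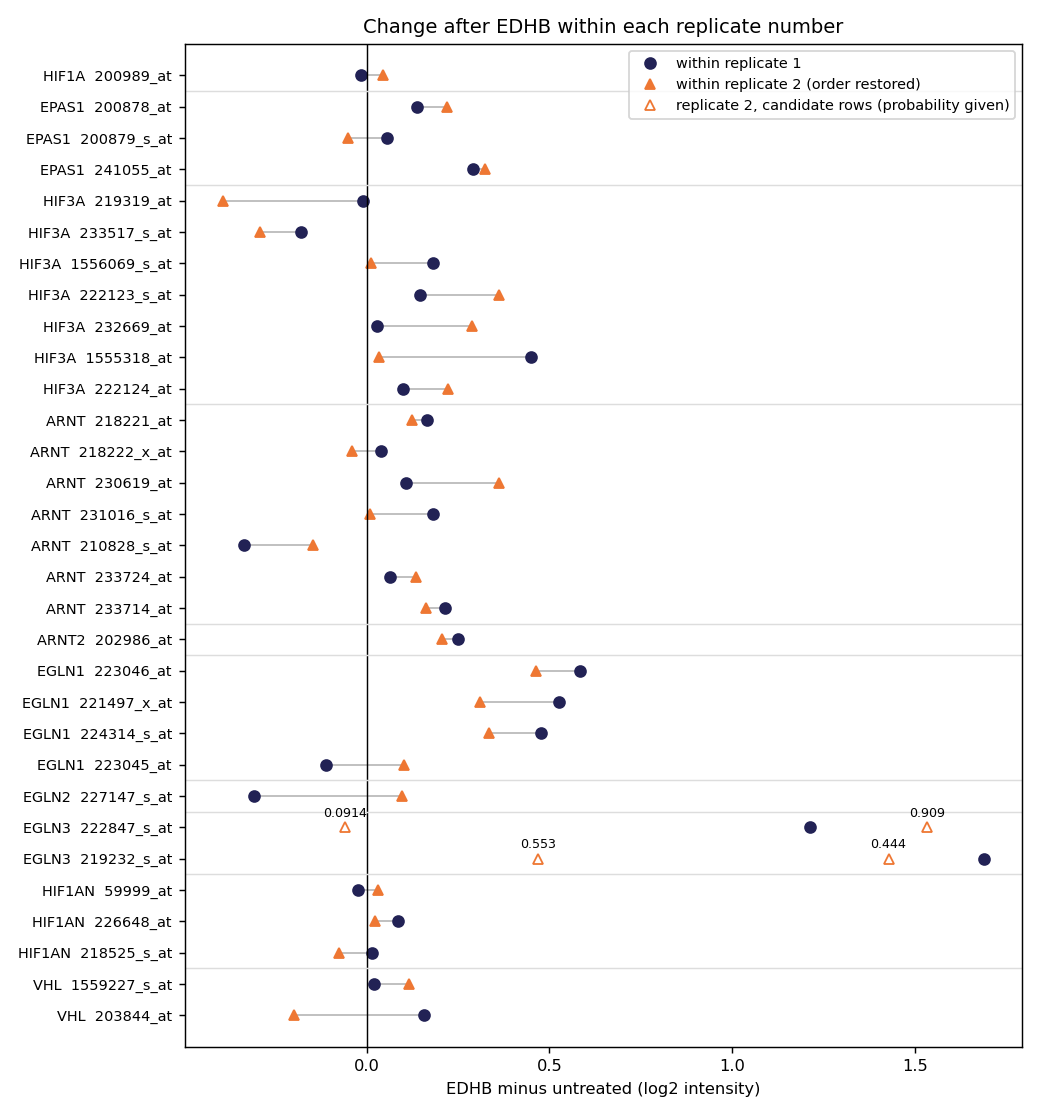
Log2 change, EDHB minus untreated (horizontal axis), within replicate 1 (circles) and replicate 2 (triangles) for each of the 31 member probe sets. Open triangles are the candidate replicate 2 rows of EGLN3 with their probabilities. The 3 bright EGLN1 probe sets lie between 0.31 and 0.58 in both replicates, the replicate 1 values of EGLN3 are 1.21 and 1.69, and HIF1A and HIF1AN lie near 0.

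The upstream sequences of EGLN1 and EGLN3 are shown because these are the hydroxylases with the largest changes. Both are the 250 bases before the start in RefSeq (GRCh38.p14), printed 5′ to 3′ on the strand of the gene, with the core of the hypoxia response element, ACGTG or GCGTG on either strand, in capitals. EGLN1 is the minus strand of chr1:231422288-231422537 and EGLN3 the minus strand of chr14:33951075-33951324.
EGLN1: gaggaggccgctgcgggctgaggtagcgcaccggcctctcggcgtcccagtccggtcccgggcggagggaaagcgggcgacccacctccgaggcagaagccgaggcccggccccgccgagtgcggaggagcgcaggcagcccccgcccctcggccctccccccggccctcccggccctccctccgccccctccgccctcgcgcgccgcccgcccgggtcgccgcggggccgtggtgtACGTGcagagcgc
EGLN3: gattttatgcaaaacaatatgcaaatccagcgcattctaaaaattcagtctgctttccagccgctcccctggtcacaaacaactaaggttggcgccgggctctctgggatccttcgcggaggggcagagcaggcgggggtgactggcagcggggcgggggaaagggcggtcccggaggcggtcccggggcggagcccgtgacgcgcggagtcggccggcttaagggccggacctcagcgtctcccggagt
EGLN1 held 1 core, ACGTG, which begins 13 bases before the start, and none of these letters lay in the EGLN3 window. Of 35116 windows of this length, 43.2% held at least 1 core, and so did 5 of the 12 windows of the 8 members with an entry (41.7%), those of HIF1A and EPAS1 among them. ARNT2 and VHL had no entry. A match is a description of letters and not a bound site, and hypoxia response elements can lie outside such a window.

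EGLN2, the prolyl hydroxylase that hypoxia is not known to induce, had 1 probe set of its own, 227147_s_at. Its intensities were 17.3 and 12.6 in untreated cells and 13.9 and 13.5 with EDHB, all below the median probe set. They overlapped, and the change was -0.11 ± 0.17 log2 units (SE), with -0.31 within replicate 1 and 0.10 within replicate 2. At this level no change of EGLN2 can be read.

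HIF1AN, the asparaginyl hydroxylase also called FIH, had 3 probe sets above the median. Its brightest, 59999_at, stood at 256 and 263 in untreated cells and 251 and 269 with EDHB. The changes were 0.002, 0.05 and -0.03 log2 units on 59999_at, 226648_at and 218525_s_at, each with an SE of 0.08 or 0.09. All 3 had overlapping groups. The 95% intervals ran from 0.836-fold to 1.21-fold over the 3 probe sets, so a change as large as that fitted for EGLN1 lay outside them.

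VHL had 1 probe set above the median, 1559227_s_at, at intensities of 115 and 117 without and 117 and 126 with EDHB. The groups stood apart by a narrow margin, and the change was 0.07 ± 0.09 log2 units (SE, n = 2 and 2; 95% interval 0.899-fold to 1.22-fold). On 203844_at, below the median, the groups overlapped and the changes were 0.16 within replicate 1 and -0.20 within replicate 2.

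HIF1A, the alpha subunit of HIF-1 and the one present in nearly all cell types, stood at 3061 and 3129 in untreated cells and 3026 and 3227 with EDHB on its only probe set, 200989_at. The groups overlapped, and the change was 0.014 ± 0.08 log2 units (SE), with a 95% interval of 0.869-fold to 1.17-fold. EPAS1, the alpha subunit of HIF-2, which shares many targets with HIF1A, had intensities of 1518 and 1410 without and 1671 and 1644 with EDHB on 200878_at. Here both EDHB arrays were higher, by 0.14 and 0.22 within replicates 1 and 2, and the fitted change was 0.18 ± 0.09 (SE; 0.972-fold to 1.32-fold; limma adjusted p = 0.447).

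The other probe sets of EPAS1 were dim. On 200879_s_at, close to the median probe set, intensities of 23.8 and 23.6 without and 24.7 and 22.8 with EDHB overlapped. On 241055_at, at intensities of 3.36 and 3.36 without and 4.12 and 4.20 with EDHB, the change was 0.31 ± 0.08 (SE), at a level not shown to be above background. With a pseudocount of 16 it was 0.06.

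HIF3A encodes an alpha subunit with splice forms that act as inhibitors of the other alpha subunits. Of its 7 probe sets 6 lay below the median, and the brightest, 219319_at, had intensities of 23.4 and 30.5 without and 23.3 and 23.2 with EDHB. Fitted changes ran from -0.24 to 0.25 log2 units over the 7, with EDHB higher without overlap on 3 and lower on 2. The probe sets thus went both ways, at levels that no column of the table shows to exceed background, and no direction is given for HIF3A. The change on 219319_at rested on untreated replicate 2, since it was -0.20 with all arrays and -0.014 without that one.

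ARNT, the beta subunit found in most tissues, had 7 probe sets, 4 of them above the median. On the brightest, 218221_at, intensities of 89.3 and 90.1 in untreated cells stood below 100.1 and 98.3 with EDHB. The change there was 0.15 ± 0.08 log2 units (SE; 0.961-fold to 1.27-fold; limma adjusted p = 0.501). On 218222_x_at, also above the median, the change was 0.001, with intensities of 36.9 and 37.7 without and 37.9 and 36.7 with the compound. The remaining probe sets of ARNT ran from -0.24 on 210828_s_at, below the median and the only negative change, to 0.23 on 230619_at. EDHB was higher without overlap on 218221_at and 230619_at, and the groups overlapped on the other 5. No probe set of ARNT passed the limma threshold.

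ARNT2, a beta subunit best known from neural tissue, had 1 probe set, 202986_at, just above the median. Intensities were 25.9 and 27.4 in untreated cells and 30.8 and 31.6 with EDHB. The groups stood apart and the change was 0.23 ± 0.08 log2 units (SE, n = 2 and 2; limma adjusted p = 0.352), with 0.25 and 0.21 within replicates 1 and 2. With a pseudocount of 16 the fitted change was 0.15.

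**Figure D3:**
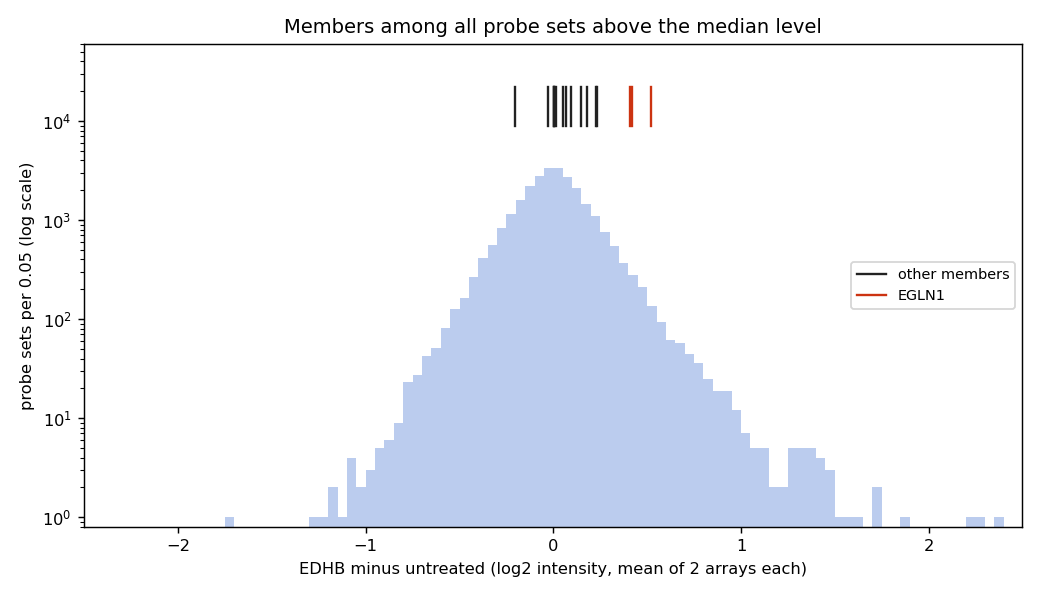
Number of probe sets (vertical axis, log scale) by log2 change, EDHB minus untreated (horizontal axis, bins of 0.05), for the 27229 restored probe sets above the median. Lines mark the 16 members among them, red for EGLN1 and black for the others. The 3 EGLN1 lines lie at 0.41, 0.42 and 0.52, and the other 13 between -0.20 and 0.23.

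The genes around this switch were taken from lists, each gene by its brightest restored probe set. In limma 0 genes of any list passed over all probe sets. Of 16 measured partners of VHL and other regulators of alpha subunit stability, 5 had the EDHB arrays higher without overlap and 4 lower, where 23.2% and 22.5% of 19751 genes did. Their median change was 0.008 log2 units, beside -0.001 over all genes. The VHL ligase partners CUL2, ELOB, ELOC and RBX1 had fitted changes of -0.12 to 0.013. A single gene of the list had an unadjusted limma p under 0.05, where 7.97% of genes stood higher and 7.18% lower. This was WSB1, a ubiquitin ligase subunit known to act on VHL, at 0.40 ± 0.09 (SE). It was chosen after its values were seen.

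Of 12 measured coactivators and modulators of HIF, 4 were higher without overlap and 6 lower, where 23.2% and 22.5% of all genes were. Their median change was -0.05 log2 units. At an unadjusted limma p under 0.05 stood CITED2, NCOA2 and RUVBL1, where 7.97% of genes stood higher and 7.18% lower. All were named after their values were seen. CITED2, a HIF-induced competitor for the coactivators EP300 and CREBBP, had a change of 0.43 ± 0.09 log2 units (SE). The changes of NCOA2 and RUVBL1 were 0.34 ± 0.09 and -0.33 ± 0.12. EP300 and CREBBP themselves had fitted changes of 0.08 and 0.07. Of 13 other factors with a PAS domain, the fold through which HIF subunits pair, 4 were higher without overlap and 3 lower. The shares of all genes were again 23.2% and 22.5%, and the median change of the PAS list was -0.07. BMAL1, the clock factor that pairs with CLOCK, had intensities of 140.0 and 141 without and 205 and 216 with EDHB. Its groups stood apart, with a change of 0.58 ± 0.08 (SE; limma adjusted p = 0.209). With an unadjusted limma p under 0.05 the PAS list had 3 genes higher and 0 lower, beside 7.97% and 7.18% of all genes. Besides BMAL1 these were AHR and NPAS2, higher by 0.28 and 0.39, at an unadjusted limma p of 0.0162 and 0.0149. Both were also named after their values were seen. For CLOCK itself the fitted change was -0.26 ± 0.11 log2 units (SE), with the EDHB arrays lower without overlap. PER2, a clock repressor, had a fitted change of -0.66 ± 0.33, the largest size in the list, but its groups overlapped and its unadjusted limma p was 0.108.

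The known targets of HIF differed from the lists above in their counts. This list was drawn up with earlier results of these data known, and its counts are a description only. Of 28 measured targets other than the hydroxylases, 23 were higher without overlap, 0 lower and 5 overlapped, against the 23.2% and 22.5% of all genes. Their median change was 0.59 log2 units, and 19 had an unadjusted limma p under 0.05, all higher, where 7.97% of genes stood higher and 7.18% lower. Among those higher without overlap, KDM3A had a mean log2 intensity of only 1.344, below the median probe set. The largest changes were those of NDRG1 (2.30), BNIP3L (1.34), VEGFA (1.32) and ENO2 (1.26). Within replicate 1, which needs no restoring, they were 2.10, 0.93, 1.26 and 1.35. Within replicate 2 all of them were past 2-fold, as were ALDOC, BNIP3 and INSIG2. For rows from the list at least 2-fold higher, EDHB above untreated in replicate 2 was fixed in advance. The counts and the median of 0.59 include these genes. The change of EGLN1 on its brightest probe set, 0.52, lay below that median, and the replicate 1 changes of EGLN3 lay above it. Over the 9 member genes with a restored probe set the median was 0.07.

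**Figure D4:**
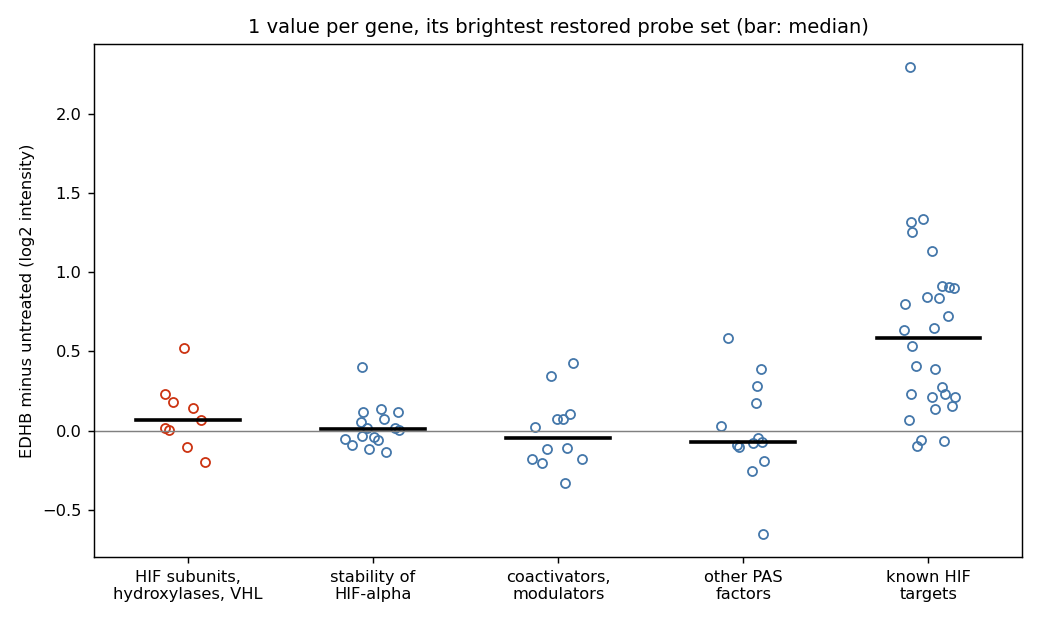
Log2 change, EDHB minus untreated (vertical axis), with 1 circle per gene at its brightest restored probe set and a bar at each median. The 9 members (red, without EGLN3) have a median of 0.07 and the 28 known HIF targets one of 0.59, while the bars of the other lists lie between -0.07 and 0.008.

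The genes most like EGLN1 over the 4 arrays were found by the Euclidean distance between log2 values, each centred on its own mean, over 12399 genes above the median probe set. The closest were PELI1 at a distance of 0.011, DMXL1 at 0.015, ULBP2 at 0.027, TSC22D1 at 0.029 and ATL1 at 0.043 log2 units. PELI1 went from 103 and 115 in untreated cells to 153 and 159 with EDHB, a change of 0.52, and the other 4 had changes of 0.49 to 0.53. With 4 arrays and this many genes, close matches are easily found, and the likeness is given as a description only.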

How the data were processed

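The deposited values are linear intensities, 1 for each probe set on each array. The submitters' processing notes name RMA. Its software is not given in the sources used here. The method corrects background and equalises the distributions of the arrays, so that a global difference between them is lost. From the deposited intensities, log2 values were computed with no pseudocount. The replicate 2 columns matched a layout in which 148 probe sets at least 2-fold higher stood first, then 45 lower, then 54419 others, each in ID order. The layout was inferred from the values alone, with the EDHB to untreated ratios of both replicates, and 3 replicate 1 rows past 2-fold stood outside the lists. A forward-backward alignment compared untreated levels only (Student's t density, scale 0.15, 3 degrees of freedom), which restored 99.7% of rows at a probability of at least 0.95 but 113 of the 193 list rows. It favours rows in which the untreated replicates look alike. Their median absolute difference was 0.125 log2 units, beside 0.113 for EDHB, and these values do not show the size of that effect. Gene names came from the platform annotation (41091 with 1 gene, 1801 with several, 11721 with none listed), with symbols checked against a RefSeq table.

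EDHB and untreated arrays were compared with limma 3.58.1 under R 4.3.3 (lmFit, then eBayes, no block, Benjamini-Hochberg over all restored probe sets, residual degrees of freedom 2, prior 2.86), and values were tabulated with Python 3.11.15. Both the alignment and the test were run on simulated data drawn from the spreads that they assume. Such runs cannot show how well they do on these arrays. The 95% intervals use the fit's moderated errors. The number of arrays limits the precision. Members, lists and the rules for named genes were chosen with earlier results of these data known. The rule named all members and, per list, up to 4 genes in each direction with an unadjusted p under 0.05 and a change of at least 0.5, besides the 5 genes most like EGLN1. Other list genes given with values, CLOCK and PER2 among them, were named outside this rule. RACK1, NCOA3, PER1, CA9 and DDIT4 of the lists were not analysed here.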

Additional observations from a re-analysis of the deposited data

How the results depend on the processing

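Over all restored probe sets 0 were called by limma, with 7315 at an unadjusted p under 0.05. The count became 56 with the intensity trend, 415 with only probe sets above the median, 2 with 1 probe set per gene, 2 with arrays centred on their medians and 2 after cyclic loess. The combinations with the trend, chosen after seeing the data, gave 1613 above the median and 375 with 1 probe set per gene, and members called then numbered 3 and 1, all EGLN1, beside 0 under each of the other settings. The labels share replicate numbers across groups, but 2 pairs cannot show that these pair the samples (same-numbered arrays deviated together at r = 0.184 across probe sets). With the replicate block 0 probe sets were called, and the adjusted p of EGLN1 became 0.377. Without any 1 array the calls stayed at 0. For EGLN1 on its brightest probe set, the 12 alternatives apart from those combinations gave changes of 0.44 to 0.60 and adjusted p-values of 0.0558 to 0.668. The 14 members with groups that do not overlap became 9 of 16 above the median. There, 25.6% of all such probe sets stood apart with EDHB higher and 26.5% with EDHB lower. With 1 probe set per gene they became 6 of 9, where 23.2% of genes stood apart higher and 22.5% lower. Fewer probe sets enter both counts. Without 1 array they became 18 to 25. Without EDHB replicate 1 there were 25 (86.2%, beside 69.3% of all probe sets) and without EDHB replicate 2 there were 22 (75.9%, beside 67.8%), while without untreated replicates 1 and 2 the shares were 62.1% and 72.4%, beside 72.6% and 71%.

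Of 107 alternative values for member changes, 5 turned their sign and 102 kept it, though sizes moved. Leaving out 1 array gave HIF1A -0.032 (without EDHB replicate 2) to 0.061, with -0.002 without untreated replicate 1. HIF1AN ranged from -0.047 to 0.052, with -0.019, negative without the same arrays. EGLN2 ranged from -0.332 to 0.121, positive without untreated replicate 1. Without 1 array HIF3A ranged from -0.391 to -0.014 and VHL from 0.013 to 0.125. Centring on medians turned the replicate 1 change of HIF3A on 219319_at to 0.002. Of the alternative values within replicate 1, 16 were counted as moved, beyond the replicate spread where the probe set was restored. With a pseudocount of 16 those of EGLN3 were 1.04 and 1.18. They are in that count, though EGLN3 has no replicate spread. The median over all probe sets of each gene turned the list of alpha subunit stability to -0.007 and the PAS factors to 0.016, and moved the known targets to 0.44. Intensities near the median probe set limit what can be read for HIF3A, EGLN2 and ARNT2, and the cause of the shifts was not tested.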
